A study of Homo sapiens with 6 samples.

Results

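Wnt signalling was examined at the RNA level through 10 genes of the pathway, DKK1, DKK3, WNT5A, WNT5B, AXIN2, LRP5, LRP6, TCF7L2, FZD2 and CTNNB1. They were chosen with earlier results of these data known. All 10 were found by name among the 58735 genes of the deposited tables, and all 10 passed the filter on low counts. The cells were wild-type MDA-MB-231, an established human triple-negative breast cancer line, stained with the membrane dye PKH26, which is shared out between daughter cells at each division, and grown for 12 days before sorting. The slow-cycling group (SCC, 3 libraries) was the 1% of cells that held the most dye. The rapid-cycling group (RCC, 3 libraries) held less dye: the treatment text calls its staining moderate, and the sample labels call it low. No drug, transgene or genetic change separated the groups, and a single cell line stands behind all 6 libraries.

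Wnt ligands are secreted lipid-modified proteins that bind Frizzled (FZD) receptors together with the co-receptors LRP5 and LRP6. In the canonical branch this stops a complex built on AXIN from marking β-catenin (CTNNB1) for destruction, and β-catenin then enters the nucleus and activates genes through TCF/LEF factors such as TCF7L2. DKK1 is a secreted inhibitor that occupies LRP5 and LRP6, and has been tied to dormancy of disseminated breast cancer cells. β-catenin activity is set largely by protein stability, which RNA counts do not measure.

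Summed counts ranged from 17655855 to 27831824 per library. SCC replicate 1 stood apart. Comparing its counts with those of SCC replicates 2 and 3 gave chi-square values of 28.9 and 21.7 per degree of freedom, and the other pairs within a group gave 3.30 to 4.30. The deviation followed GC content, the share of G and C bases in a transcript. Relative to the mean of the 6 libraries, SCC replicate 1 had a median log2 deviation of -0.24 in the tenth of genes with the lowest GC content and of 0.40 in the tenth with the highest. Markers known for the line (VIM, CD44, KRT18, KRT8, SPARC and AXL) were present at mean levels of 31.1 to 785 CPM (counts divided by the scaled library total, as in the tests), and those of leukocytes summed to 1.79 to 4.01 CPM in SCC and 1.43 to 1.79 CPM in RCC, with 1 of 7 (CSF1R) above 1 CPM on average and none at 0 in all libraries. Of 5 genes held to be low or absent in the line, ESR1, PGR and CDH1 were under 1 CPM on average, while GATA3 was at 6.96 to 10.2 CPM and ERBB3 at 2.96 to 4.55 CPM. Fibroblast markers summed to 11.3 to 12.4 CPM in SCC and 10.3 to 11.6 CPM in RCC, nearly all of it PDGFRB, and endothelial markers to 3.32 to 3.73 and 3.15 to 3.92 CPM. None of these marker genes was called. The 5 proliferation markers, among them MKI67 and PCNA, summed to 2019 to 2078 CPM in SCC and to 1992 to 2087 CPM in RCC, and 0 of the 5 were called. As these are bulk samples, fewer cells with a transcript and less of it per cell cannot be told apart.

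Because SCC replicate 1 followed base composition, the sequences of the related pairs among the 10 genes are shown with G and C in capitals. LRP5 and LRP6 are paralogs with the same role as co-receptors, but the longest annotated transcript of LRP5 held 62.8% G and C and that of LRP6 40.2%. At the last position of each codon, where many changes leave the protein unaltered, the shares were 86.0% and 43.3%. WNT5A and WNT5B encode closely related ligands, with 42.3% and 58.6% G and C in the transcript. Bases 301 to 390 of the LRP6 coding sequence and their best ungapped in-frame match in LRP5, bases 340 to 429, agreed at 57 of 90 positions, with 34.4% and 61.1% G and C. Bases 301 to 390 of the WNT5A coding sequence and bases 238 to 327 of WNT5B agreed at 72 of 90 positions, with 45.6% and 55.6%. The sequences are from GENCODE release 29, 5′ to 3′.
LRP6: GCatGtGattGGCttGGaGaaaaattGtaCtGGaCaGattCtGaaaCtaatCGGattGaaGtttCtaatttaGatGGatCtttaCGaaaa
LRP5: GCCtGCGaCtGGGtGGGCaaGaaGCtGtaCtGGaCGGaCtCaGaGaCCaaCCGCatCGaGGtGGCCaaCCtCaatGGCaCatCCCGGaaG
WNT5A: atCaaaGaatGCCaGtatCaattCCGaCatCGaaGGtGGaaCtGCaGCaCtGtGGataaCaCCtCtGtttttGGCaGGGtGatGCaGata
WNT5B: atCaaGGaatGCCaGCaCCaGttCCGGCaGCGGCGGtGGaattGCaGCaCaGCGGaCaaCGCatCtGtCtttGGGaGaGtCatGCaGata

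The promoter of DKK1 is shown because DKK1 had the highest level of the 10 genes and is itself known as a target of β-catenin. The window from 250 bases before to 50 bases after the start of transcription (RefSeq, GRCh38.p14, chr10:52314031-52314330, plus strand) follows 5′ to 3′.
DKK1: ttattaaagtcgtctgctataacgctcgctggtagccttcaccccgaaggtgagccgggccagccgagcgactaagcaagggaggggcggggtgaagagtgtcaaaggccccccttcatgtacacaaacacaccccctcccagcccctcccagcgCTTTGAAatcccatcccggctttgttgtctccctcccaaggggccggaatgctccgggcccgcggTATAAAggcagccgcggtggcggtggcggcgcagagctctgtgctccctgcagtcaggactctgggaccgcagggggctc
The capitals mark CTTTGAA, a TCF/LEF-type sequence that starts 95 bases before the transcription start, and TATAAA, the core promoter box, which starts 30 bases before it. The first, counted on both strands (reverse complement TTCAAAG), was present in 4.43% of the 35116 promoter windows in the table. TATAAA, counted on the gene's strand only, was present in 7.33%. Promoter windows were matched for 6 of the 10 genes, 10 windows in all. In those windows, DKK1 was the only gene with either sequence, and the TCF/LEF form CTTTGAT (reverse complement ATCAAAG, in 2.62% of all windows) and the AP-1 sequence TGACTCA (reverse complement TGAGTCA, in 4.95%) were absent. Other forms of the TCF/LEF sequence were not searched for and are not marked.

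The 10 genes spanned a wide range of levels. Between genes, levels are compared as FPKM, counts scaled to gene length and library total, as the authors deposited them. DKK1 was the highest, with means of 94.1 ± 10.9 FPKM in SCC and 99.5 ± 5.51 FPKM in RCC (SD, n = 3). LRP5 was next, at 55.6 ± 10.7 and 42.6 ± 1.28. CTNNB1, which encodes β-catenin, followed at 32.3 ± 0.80 FPKM in SCC and 33.7 ± 1.53 in RCC. FZD2, a receptor that can bind WNT5A, was at 19.1 ± 4.39 and 14.9 ± 1.54 FPKM. LRP6 was at 8.85 ± 0.19 FPKM in SCC and 9.53 ± 0.64 in RCC, and WNT5B at 6.75 ± 0.15 and 5.92 ± 0.47. WNT5A and TCF7L2 lay close together, at 3.48 ± 0.37 and 3.48 ± 0.65 FPKM in SCC and at 3.71 ± 0.25 and 3.03 ± 0.26 in RCC. AXIN2 and DKK3 were lowest, at 0.93 ± 0.06 and 0.78 ± 0.05 FPKM in SCC and 0.79 ± 0.04 and 0.60 ± 0.18 in RCC. The order of the means was the same in both groups. Of the neighbours in that order, WNT5A and TCF7L2 overlapped between libraries in SCC, and AXIN2 and DKK3 in RCC. The ranges of all other neighbours were separate.

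**Figure D1:**
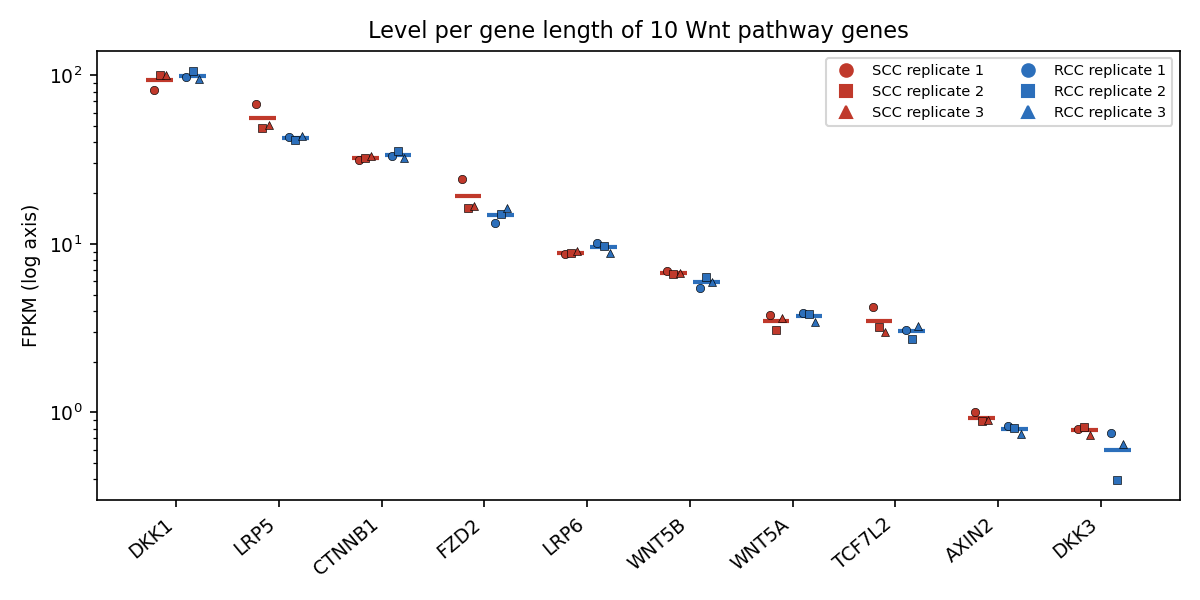
Level of the 10 genes in FPKM (log axis), with SCC in red, RCC in blue, 1 symbol per replicate and a bar at the group mean. DKK1 lies highest near 100 FPKM and AXIN2 and DKK3 lowest, with all libraries under 1 FPKM.

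Within the families examined, DKK1, WNT5B, TCF7L2 and LRP5 had the highest level, and WNT5A, FZD2, DKK3, LRP6 and AXIN2 came second. DKK1 was at a mean of 96.8 FPKM over the 6 libraries, DKK3 at 0.69 and DKK2 at 0.018, while DKK4 had 0 counts in every library. WNT5B and WNT5A led the 19 WNT genes, at 6.33 and 3.60 FPKM, ahead of WNT7B at 2.77 and WNT3 at 2.75. Among 10 Frizzled genes FZD6 was first at 30.0 FPKM and FZD2 second at 17.01, before FZD7 at 7.82. TCF7L2 was highest of the 4 TCF/LEF genes at 3.25 FPKM, and LEF1 was at 1.23. LRP5 was at 49.1 FPKM against 9.19 for LRP6. AXIN2, a feedback target of β-catenin, was low beside its constitutively expressed paralog AXIN1, at 0.86 against 7.44 FPKM.

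Between slow-cycling and rapid-cycling cells, none of the 10 genes was called. By edgeR's quasi-likelihood test with Benjamini-Hochberg adjustment over 15881 genes, 0 of 10 reached an adjusted p under 0.05, where 2.07% of all tested genes did. At an unadjusted p under 0.05, 3 were higher (LRP5, FZD2 and WNT5B) and 0 lower, against 11.4% of tested genes higher and 8.27% lower. DESeq2 called 1 of the 10, LRP5, and 3.27% of all genes. The SCC and RCC libraries did not overlap for LRP5, WNT5B and AXIN2, all 3 higher in SCC, as for 14.4% of tested genes, and no member was lower without overlap, as 13.4% of tested genes were. The median log2 fold change of the 10 was 0.21, against 0.00 for all tested genes. It was 0.10 when SCC replicate 1 was dropped and 0.07 with the GC offset.

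**Figure D2:**
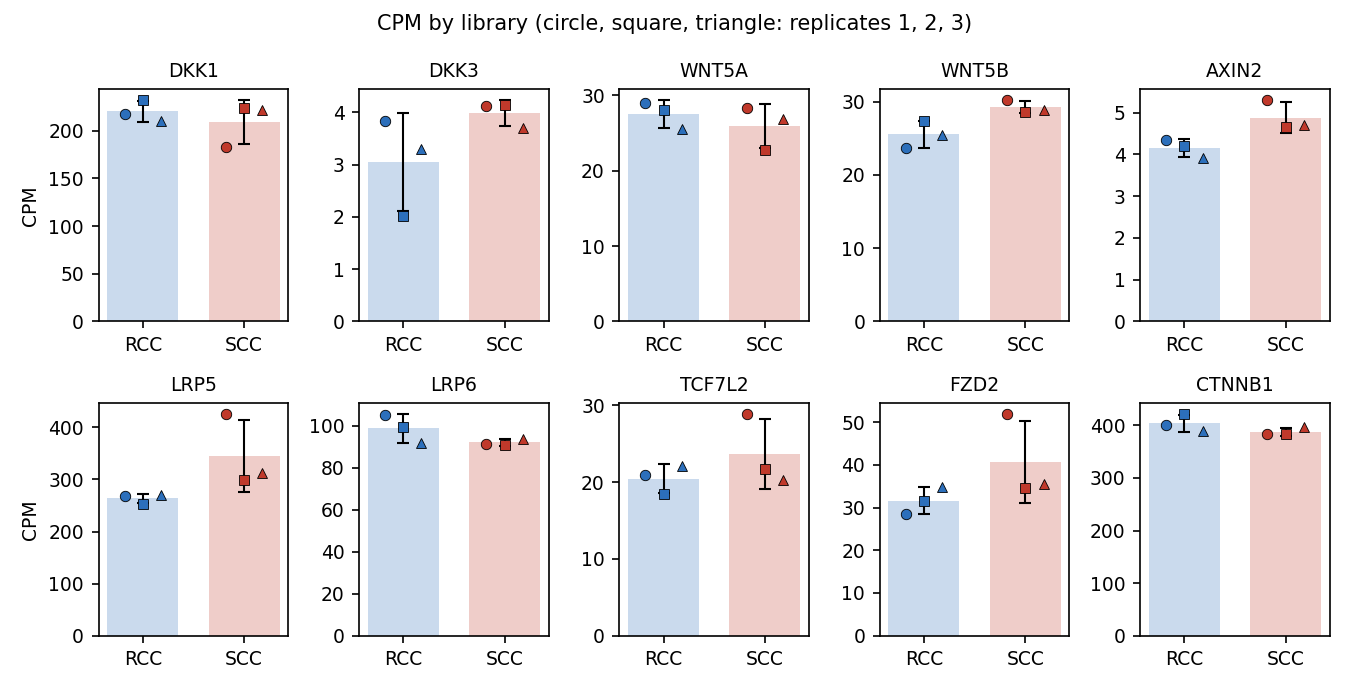
CPM of each of the 10 genes in the 3 RCC (blue) and 3 SCC (red) libraries, with bars from 0 at the group mean and error bars of 1 SD. The circle of SCC replicate 1 lies well above the other SCC symbols for LRP5, FZD2 and TCF7L2 and below them for DKK1.

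DKK1 (ENSG00000107984, chromosome 10, 52314296 to 52318042 on GRCh38) was at 182, 223 and 221 CPM in SCC replicates 1 to 3 and at 218, 232 and 211 CPM in RCC replicates 1 to 3. Only SCC replicate 1 lay below the RCC range, and the other SCC libraries lay inside it. SCC over RCC gave a log2 fold change of -0.08 (standard error 0.09, edgeR adjusted p 0.638). The 95% interval ran from -0.26 to 0.11, not adjusted for the number of genes. Without SCC replicate 1 the log2 fold change was 0.015 (interval -0.08 to 0.11), and with an offset for GC content it was -0.018 (interval -0.14 to 0.10). An increase of DKK1 of more than 1.08-fold lies outside the interval from all 6 libraries. DKK3 (ENSG00000050165, chromosome 11, 11963106 to 12009769), a divergent family member that does not act on LRP5 and LRP6 as DKK1 does, had 111, 81 and 78 counts in SCC and 88, 42 and 59 in RCC, or 4.12, 4.14 and 3.70 against 3.83, 2.01 and 3.30 CPM. Its groups overlapped, and RCC replicate 2 was the lowest. Its log2 fold change was 0.39 (standard error 0.23, interval -0.12 to 0.90, edgeR adjusted p 0.367). It was 0.15 without RCC replicate 2 and 0.59 without RCC replicate 1, and was not called in either fit.

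LRP5 (ENSG00000162337, chromosome 11, 68312609 to 68449275), a co-receptor, was at 425, 299 and 313 CPM in SCC and at 268, 253 and 270 CPM in RCC. Every SCC library lay above every RCC library, and SCC replicate 1 was far above the other SCC libraries. The fitted log2 fold change was 0.39 (standard error 0.12, interval 0.14 to 0.65, edgeR adjusted p 0.110). Dropping SCC replicate 1 gave a log2 fold change of 0.22 (interval 0.12 to 0.31) and an adjusted p of 0.0037, in a fit that called 6.03% of genes. LRP5 was also called without SCC replicate 2 (0.47, adjusted p 0.0297, 5.16% of genes called) and by DESeq2 (0.39, adjusted p 0.024). Without a filter on low counts edgeR called it too (0.40, adjusted p 6.3e-05, 3.48% of genes called). That fit held 37596 genes against 15881 with the filter. The log2 fold change hardly differed, and why the adjusted p was so much lower was not tested. With the GC offset, which called 4.84% of genes, LRP5 was at 0.16 (interval 0.06 to 0.26) and was not called (adjusted p 0.0655). In all, 5 of 15 alternatives called it, the replicate block (0.38, adjusted p 0.0449) among them. Limma on log2(FPKM + 1), on log2(FPKM + 0.1) and without a filter did not call it (adjusted p 0.226, 0.228 and 0.529). Neither did RLE scaling (adjusted p 0.105) nor the replicate block with the GC offset (adjusted p 0.0551). Leaving out SCC replicate 3 gave 0.45 (adjusted p 0.121), and leaving out RCC replicates 1, 2 and 3 gave 0.39, 0.36 and 0.40 (adjusted p 0.296, 0.331 and 0.278), so the size held in these fits while the calls were not made.

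LRP6 (ENSG00000070018, chromosome 12, 12116025 to 12267012), the other co-receptor, was at 91.4, 91.1 and 94.0 CPM in SCC and at 105, 99.5 and 91.7 CPM in RCC. The groups overlapped through RCC replicate 3. LRP6 had a log2 fold change of -0.10 (standard error 0.07, interval -0.26 to 0.06, edgeR adjusted p 0.445). It was -0.0026 with the GC offset, and across fits without 1 library it ran from -0.16 (RCC replicate 3 dropped) to -0.06 (RCC replicate 1 dropped). In FPKM, LRP5 exceeded LRP6 by 7.80, 5.52 and 5.58 times in the SCC libraries and by 4.27, 4.26 and 4.93 times in the RCC libraries. The mean ratio was 4.49 ± 0.38 in RCC and 6.30 ± 1.30 in SCC (SD, n = 3). The other SCC libraries had a mean of 5.55 when replicate 1 was dropped. The two-sided exact permutation p on log2 ratios was 0.1, the smallest that 3 against 3 libraries allow, and 0.1 after adjustment over the 2 ratios tested. SCC replicate 1 had the highest of the 6 ratios, and the part of its GC-dependent departure in the difference was not tested. Both ratios given here were chosen after the values of the genes were seen.

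FZD2 (ENSG00000180340, chromosome 17, 44557459 to 44559570), an intronless receptor gene with the highest GC content of the 10 (64.9%), was at 51.8, 34.6 and 35.6 CPM in SCC and at 28.4, 31.6 and 34.8 CPM in RCC. The groups overlapped narrowly, between SCC replicate 2 and RCC replicate 3, and SCC replicate 1 was the highest. The log2 fold change was 0.37 (standard error 0.15, interval 0.04 to 0.70, edgeR adjusted p 0.208). Dropping SCC replicate 1 gave 0.16 and the GC offset gave 0.09, and neither fit called it. Of 15 alternatives 1 called FZD2, the fit without a filter on low counts (0.38, adjusted p 0.0123, 3.48% of genes called).

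WNT5A (ENSG00000114251, chromosome 3, 55465715 to 55490539), a ligand that mostly signals without β-catenin, was at 28.3, 22.8 and 26.8 CPM in SCC and at 29.04, 28.1 and 25.5 CPM in RCC. The groups overlapped, with SCC replicate 2 the lowest. The log2 fold change was -0.09 (standard error 0.10, interval -0.31 to 0.14, edgeR adjusted p 0.665). It was -0.0043 with the GC offset, -0.015 when SCC replicate 2 was dropped and -0.15 when SCC replicate 1 was dropped. WNT5B (ENSG00000111186, chromosome 12, 1529891 to 1647243), its paralog, was at 30.2, 28.6 and 28.9 CPM in SCC and at 23.7, 27.4 and 25.5 CPM in RCC. All SCC libraries were above all RCC libraries, and SCC replicate 1 did not stand apart. The log2 fold change of WNT5B was 0.20 (standard error 0.09, interval 0.00 to 0.39, edgeR adjusted p 0.253), and it was 0.05 with the GC offset and 0.17 once SCC replicate 1 was dropped. The ratio of WNT5B to WNT5A in FPKM was 1.84, 2.16 and 1.86 in SCC and 1.40, 1.68 and 1.72 in RCC, with a two-sided exact permutation p of 0.1 and 0.1 after adjustment. The gene FBXL14 lies in WNT5B on the opposite strand and had 808, 484 and 494 counts in SCC and 458, 440 and 420 in RCC. These are raw counts, not scaled to the library totals, which ranged from 17655855 (RCC replicate 3) to 27831824 (SCC replicate 1). Whether counting used strand is not given in the sources used here, so reads from either gene may be mixed.

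CTNNB1 (ENSG00000168036, chromosome 3, 41194741 to 41260096) was at 383, 384 and 397 CPM in SCC and at 400.5, 421 and 389 CPM in RCC. The groups overlapped, and the log2 fold change of -0.06 had the narrowest interval of the 10, from -0.19 to 0.08 (standard error 0.06, edgeR adjusted p 0.621). With the GC offset it was 0.0049. AXIN2 (ENSG00000168646, chromosome 17, 65528563 to 65561647) was at 5.30, 4.65 and 4.70 CPM in SCC and at 4.35, 4.21 and 3.92 CPM in RCC. The groups did not overlap, but the counts behind these values were 70 to 143, and the log2 fold change of 0.23 had a standard error of 0.16 (interval -0.11 to 0.58, edgeR adjusted p 0.415). TCF7L2 (ENSG00000148737, chromosome 10, 112950250 to 113167678) was at 28.8, 21.7 and 20.3 CPM in SCC and at 20.9, 18.4 and 22.04 CPM in RCC. SCC replicate 1 alone lay above the RCC range. Its log2 fold change of 0.21 (standard error 0.14, interval -0.09 to 0.51, edgeR adjusted p 0.395) became 0.26 with the GC offset and 0.04 when SCC replicate 1 was dropped.

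**Figure D3:**
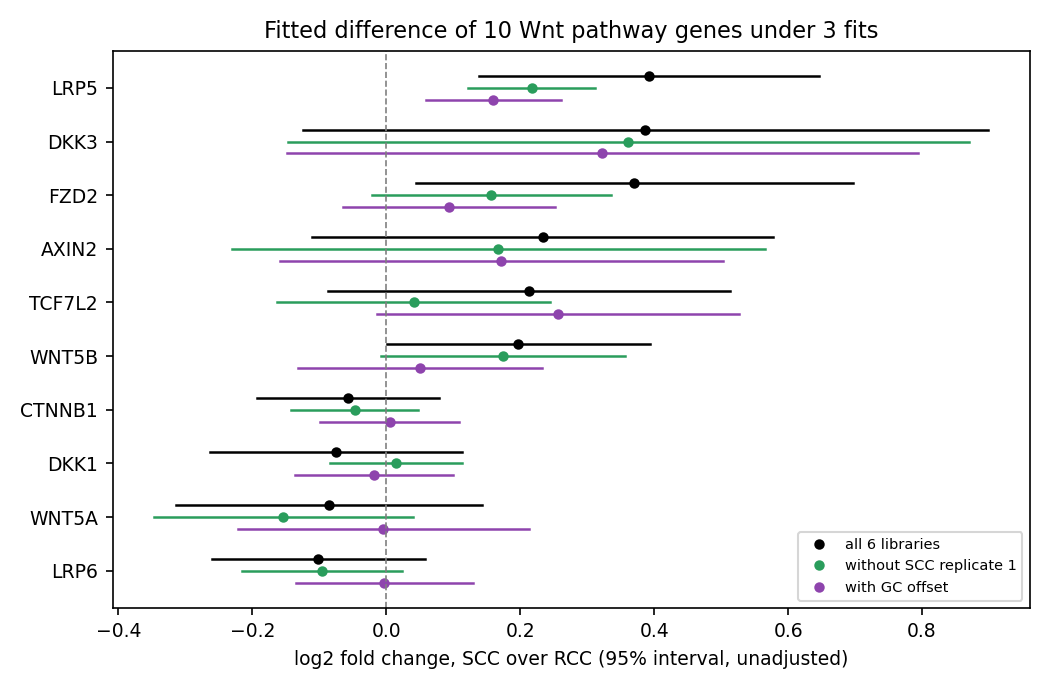
Fitted log2 fold change of SCC over RCC with its 95% interval, unadjusted, for the 10 genes with all 6 libraries (black), without SCC replicate 1 (green) and with the GC offset (purple). LRP5 lies above 0 in all 3 fits but moves from 0.39 to 0.22 and 0.16, and the intervals of DKK1, LRP6, WNT5A and CTNNB1 include 0 in each.

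The members differed in how far SCC replicate 1 departed from the other SCC libraries. As a log2 ratio of its CPM to the mean of SCC replicates 2 and 3, the departure was 0.56 for FZD2, 0.47 for LRP5 and 0.46 for TCF7L2. It was 0.19 for WNT5A, 0.18 for AXIN2 and 0.07 for both WNT5B and DKK3. It was -0.018 for LRP6, -0.03 for CTNNB1 and -0.28 for DKK1. Across the 10 genes the departure had a Pearson r of 0.62 and a Spearman rho of 0.60 with transcript GC content, and across 15867 tested genes of 0.50 and 0.60. These are descriptions over genes that share the same 3 libraries.

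**Figure D4:**
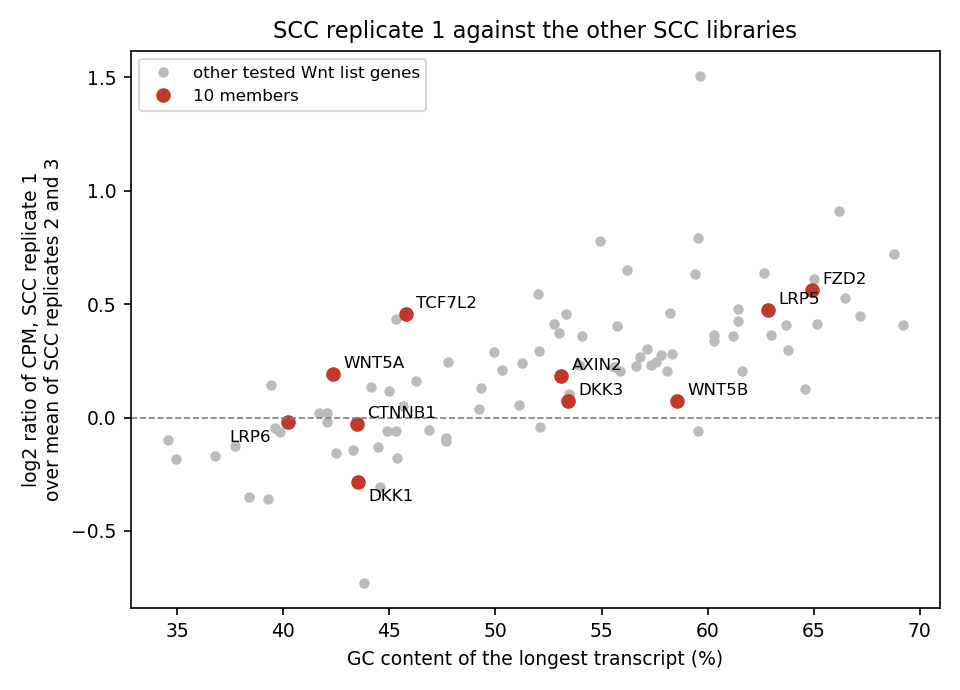
Departure of SCC replicate 1 from SCC replicates 2 and 3 (log2 ratio of CPM) against transcript GC content in percent, for the 10 genes (red) and the other tested Wnt list genes (grey). FZD2 and LRP5 lie at the upper right, at 0.56 and 0.47, and DKK1 lies lowest of the 10, at -0.28.

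Genes whose profile over the 6 libraries was most like that of DKK1 were VTA1, ECT2, SEC22A, BZW1 and SLC25A40. Their Pearson r with DKK1 on log2 CPM was 0.997, 0.997, 0.997, 0.996 and 0.996 over 6 libraries, and all 5 were, like DKK1, not called. Of the 7 other members above the 5 CPM minimum (all but DKK3 and AXIN2), TCF7L2 ran most opposite to DKK1 (r = -0.97), then LRP5 and FZD2 (both -0.86). The libraries are the same throughout, and SCC replicate 1 was the lowest for DKK1 and the highest for TCF7L2, LRP5 and FZD2.

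The wider pathway was described by a list of 124 genes in 9 roles, also chosen with earlier results of these data known. Of these genes, 90 passed the filter on low counts. The other 34 had at most 20 counts in any library, among them the R-spondin ligands, the secreted FRP inhibitors and the feedback targets RNF43, NKD1 and NOTUM. Of the 90, 2 were higher in SCC by edgeR (1.69% of all tested genes were higher) and 0 were lower (0.378% of all). At an unadjusted p under 0.05, 20 of the 90 were higher and 3 lower, where 11.4% of all tested genes were higher and 8.27% lower. The median log2 fold change of the 90 was 0.11, against 0.00 for all tested genes, and 68 of them (75.6%) were positive against 50.5% of all genes. The GC offset brought the median to 0.05, and dropping SCC replicate 1 brought it to 0.04. The listed genes had a median GC content of 53.0%, against 48.1% for all tested genes. In the tercile of genes with the highest GC content (53.3 to 74.7%), the 44 listed genes had a median of 0.23 and all genes 0.17. In the tercile with the lowest (23.1 to 43.8%), the 19 listed genes had a median of -0.07 and all genes -0.11. In the middle tercile the 27 listed genes had a median of 0.08 and all genes -0.0094. With the GC offset the listed genes' medians were 0.04 in the highest tercile, 0.07 in the middle and 0.02 in the lowest, against -0.0026, -0.0045 and -0.0028 for all genes.

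Both called genes encode Groucho/TLE corepressors, which bind TCF/LEF factors and keep their targets silent when β-catenin is absent. TLE1 was at 48.7, 40.5 and 41.7 CPM in SCC and at 32.9, 33.8 and 31.1 CPM in RCC, with no overlap. The log2 fold change of TLE1 was 0.42 (standard error 0.09, edgeR adjusted p 0.0447), and it was called with the GC offset (0.29, adjusted p 0.022) and when SCC replicate 1 was dropped (0.33, adjusted p 0.0073). TLE2 was at 6.64, 4.81 and 5.22 CPM in SCC and at 3.35, 2.58 and 3.02 CPM in RCC, also with no overlap. Its log2 fold change was 0.90 (standard error 0.19, edgeR adjusted p 0.0386), against 0.65 with the GC offset (adjusted p 0.0376) and 0.75 when SCC replicate 1 was dropped (adjusted p 0.0315). Neither gene was called by limma on FPKM, nor without SCC replicate 3 or any 1 of the RCC replicates, and in those fits the adjusted p ranged up to 0.272 for TLE1 and 0.384 for TLE2. When SCC replicate 3 or an RCC replicate was dropped, the log2 fold change was 0.38 to 0.44 for TLE1 and 0.80 to 0.99 for TLE2. Of the other TLE genes, TLE3 was at 0.36 (edgeR adjusted p 0.22, not called), or 0.11 when SCC replicate 1 was dropped. TLE4 had at most 5 counts in any library and was not tested. AES, another listed nuclear factor, was at 0.23 (edgeR adjusted p 0.18, not called). TLE3, TLE4 and AES are named after their values were seen. The 16 tested nuclear factors had a median log2 fold change of 0.21, or 0.10 with the GC offset and 0.07 when SCC replicate 1 was dropped.

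In the other roles no gene was called by edgeR. The 9 tested ligands had a median log2 fold change of 0.20, or 0.08 with the GC offset. At an unadjusted p under 0.05, 4 of them were higher and 0 lower, where 11.4% of all tested genes were higher and 8.27% lower. Among the ligands WNT9A had the smallest p, and a log2 fold change of 0.85 (edgeR adjusted p 0.0851), from 1.83 ± 0.32 CPM in RCC to 3.32 ± 0.48 in SCC (SD, n = 3). Of the 2 genes for Wnt secretion, PORCN, the enzyme that attaches the lipid to Wnt proteins, was at 0.60 (adjusted p 0.102), and WLS, which carries them to the cell surface and is named after its value was seen, was at 0.00052. The 13 receptors had a median of 0.09, or 0.0061 when SCC replicate 1 was dropped and 0.05 with the GC offset. The non-member receptor with the smallest p was FZD7 at 0.38 (adjusted p 0.162). FZD7 was at 0.23 when SCC replicate 1 was dropped, and 3 of 15 alternatives called it. These were the fit without SCC replicate 2 (0.51, adjusted p 0.018, 5.16% of genes called) and that without a filter on low counts (0.39, adjusted p 0.0145, 3.48%). The replicate block with the GC offset called it as well (0.31, adjusted p 0.0497, 1053 genes called). The 7 tested inhibitors had a median of 0.02, which turned to -0.0090 when SCC replicate 1 was dropped and to -0.04 with the GC offset. KREMEN2, a DKK1 co-receptor, was at 0.16 (adjusted p 0.743), and at -0.13 and -0.21 in those fits. It had 40 to 95 counts per library. The gene PKMYT1 overlaps KREMEN2 on the opposite strand and had 1441 to 3313 counts. As the strand setting is not given, reads of PKMYT1 may be mixed in. LGR4, an R-spondin receptor, was at 0.12 (adjusted p 0.344) and at 0.20 with the GC offset.

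The 23 tested cytoplasmic components had a median log2 fold change of 0.11, or 0.05 when SCC replicate 1 was dropped and 0.014 with the GC offset. DVL3, which relays the signal from Frizzled, was at 0.27 (adjusted p 0.142), and at 0.17 and 0.15 in those fits. The 13 planar polarity genes had a median of 0.17, which was 0.06 when SCC replicate 1 was dropped and 0.03 with the GC offset. CELSR2, an atypical cadherin, was at 0.39 (adjusted p 0.0984), and at 0.25 and 0.20 in those fits. CELSR2 was called by 2 of 15 alternatives. These were the fit without SCC replicate 2 (0.44, adjusted p 0.0414, 5.16% of genes called) and that without a filter on low counts (adjusted p 0.0086, 3.48%). The 11 tested target genes had a median of 0.10, or 0.015 when SCC replicate 1 was dropped and 0.05 with the GC offset. MYC had the smallest p of them. Its level was 122 ± 3.43 CPM in RCC and 147 ± 14.0 in SCC (SD, n = 3), for a log2 fold change of 0.27 (edgeR adjusted p 0.105). MYC was called by 4 of 15 alternatives. Among them were the GC offset (0.20, adjusted p 0.0271, 4.84% of genes called) and the fit without SCC replicate 1 (0.19, adjusted p 0.0193, 6.03%). Those that did not call it included DESeq2 (adjusted p 0.073) and limma on FPKM (adjusted p 0.171, 0.177 and 0.399). The fits without SCC replicate 3 or any 1 of the RCC replicates did not call it either. As background, MYC answers to many pathways besides Wnt. AXIN2 and DKK1, the targets among the 10 genes, were at 0.23 and -0.08 and were not called.

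**Figure D5:**
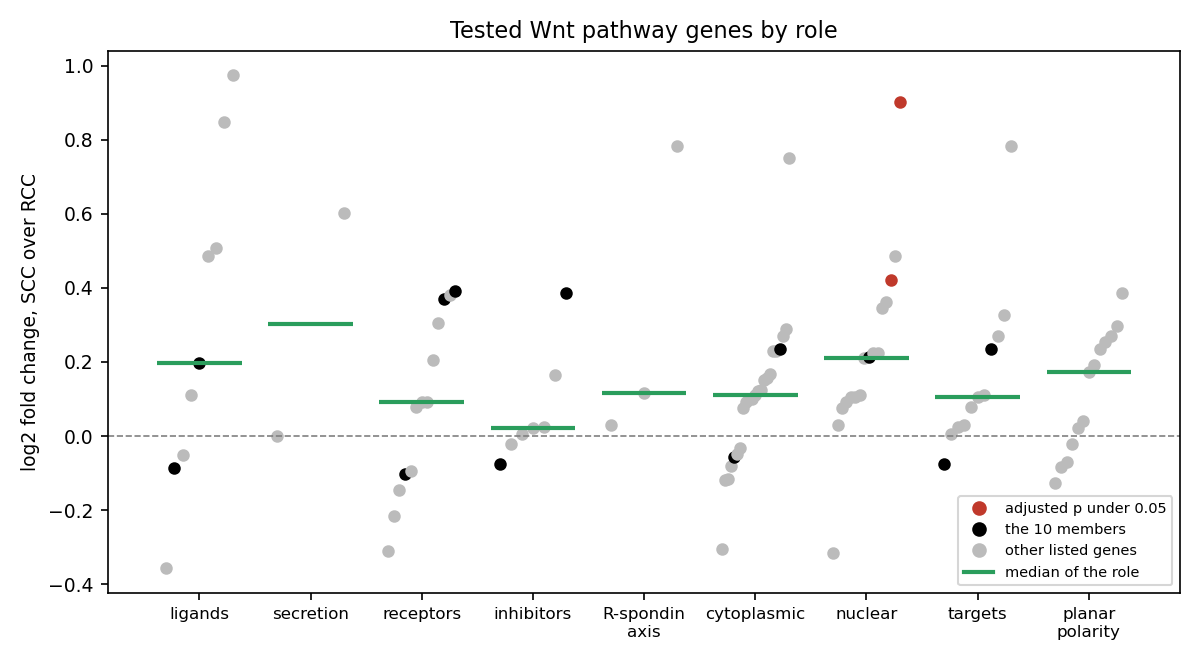
Log2 fold change of SCC over RCC for the tested genes of the 9 role lists (a gene may stand in more than 1 role), with the 10 members in black, genes with an adjusted p under 0.05 in red and a green bar at the median of each role. The 2 red points, TLE1 and TLE2, stand among the nuclear factors, whose median is 0.21.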

How the data were processed

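RNA-seq of 6 libraries from total RNA was used as the authors deposited it: raw counts for each gene, and FPKM that equalled the deposited count divided by the authors' gene length and by 1 constant per library, 0.984 to 1.02 times its summed count. Per the submitters' processing notes, HISAT2 2.0.5 and featureCounts 1.5.0-p3 were used; build and strand setting are not given in the sources used here. All 58735 rows matched GENCODE release 29 (GRCh38) in gene ID and position.

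Counts were filtered (filterByExpr, minimum count 10), TMM-scaled and fitted on group with edgeR 4.0.16 (R 4.3.3). The two-sided quasi-likelihood test was adjusted over all tested genes, with calls at an adjusted p under 0.05. Standard errors are the log2 fold change over the square root of F. Alternatives used DESeq2 1.42.0, limma 3.58.1 on log2(FPKM + 1) or log2(FPKM + 0.1) with an FPKM minimum of 1 in 3 libraries, RLE scaling, no filter, the replicate number as a block, an offset from a lowess curve (span 0.3) on GC content of each gene's longest transcript (known for 15874 tested genes), and each library left out. The fits were tested on simulated counts with a single dispersion for all genes. These held no GC-dependent deviation and no outlying library, so they do not cover the departure of SCC replicate 1.

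The members and lists were chosen with earlier results of these data known. Named genes are the 10 members, called listed genes, the listed non-member with the smallest p in each role, and the 5 genes of at least 5 CPM closest to DKK1. No per-sample column was left unmapped. Intervals are for the fitted difference between the groups and reflect only the variation between these libraries.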

Additional observations from a re-analysis of the deposited data

How the results depend on the processing

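Against 0 called members, DESeq2 called 1, edgeR without a filter 2 and with the replicate block 1, and fits without 1 library 0 to 1, with LRP5 in each non-zero count and FZD2 the other call without a filter. Against 2 listed genes higher, DESeq2 gave 4, no filter 13, the replicate block 4, the GC offset 4, the replicate block with the GC offset 5, limma on log2(FPKM + 1), on log2(FPKM + 0.1) and without a filter 0, 0 and 0, and fits without 1 library 0 to 8. Against 0 lower, fits without 1 library gave 0 to 1 (AMER1, without SCC replicate 1). Against 328 genes called in all, the same settings gave 514 (DESeq2), 1310 (no filter), 768 (GC offset), 1053 (replicate block with the GC offset), 166, 151 and 49 (limma) and 107 to 985 (without 1 library). RLE scaling left each of these counts within 1.5 times. The cause was not tested; fits without a library hold fewer samples.

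The sign turned for DKK1 without SCC replicate 1 (0.015), for CTNNB1 with the GC offset (0.0049) and with the offset and the block (0.0047), and for KREMEN2 in these GC fits (-0.21 and -0.21) and without SCC replicate 1 (-0.13). Over the fits without 1 library, DKK1 ranged from -0.14 to 0.015 and KREMEN2 from -0.13 to 0.29. Of the members' other values under the 15 alternatives, 137 kept direction and side of the threshold and 6 (5 of LRP5, 1 of FZD2) passed it. DKK3 and AXIN2 had no value in the filtered limma fits.

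Same-numbered libraries did not deviate together (correlations of deviations from the group means -0.0091, 0.025 and -0.079), and the numbers were not taken as pairs in the main fit. SCC replicate 1, which stood apart, enters the group mean behind all SCC deviations, so these correlations cannot exclude pairing. With the replicate block LRP5 was at 0.38 (adjusted p 0.0449) and 456 genes were called, against 328 without the block. DKK3 and AXIN2 had the fewest counts of the 10 genes, 42 to 143 per library, and the widest intervals.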

Other observations

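BCL9L and AMER1 were chosen after their values were seen. BCL9L, which links β-catenin to its transcriptional partner PYGO, was at 288, 176 and 193 CPM in SCC and at 157, 154 and 158 CPM in RCC. Its groups did not overlap, and the log2 fold change from all 6 libraries was 0.49 (edgeR adjusted p 0.121, not called). Of 15 alternatives 7 called it, including the GC offset (0.25, adjusted p 0.0377) and the fit that dropped SCC replicate 1 (0.24, adjusted p 0.0025). AMER1, a partner of APC in the destruction complex, was at 13.5, 10.9 and 11.9 CPM in SCC and at 14.7, 15.1 and 15.2 CPM in RCC, with no overlap. Its log2 fold change was -0.31 (edgeR adjusted p 0.180), or -0.39 without SCC replicate 1 (adjusted p 0.0343), the 1 alternative of 15 that called it.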
